A study of Mus musculus with 75 samples.

Results

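The comparison described here asked whether a history of repeated cocaine changed nuclear RNA after the same cocaine challenge in D1 neurons of the nucleus accumbens. It set 10 libraries of D1 nuclei named CC against 9 libraries named SC, 19 of the 75 libraries of the series, chosen by the treatment in their labels. All mice were male and carried a Cre-dependent nuclear-tagged GFP (LSL-eGFP::L10a) together with D1-Cre. The first group letter was read as the repeated injection and the second as the challenge (C, cocaine; S, saline). CC mice received cocaine at 20 mg/kg intraperitoneally on each of 10 days and SC mice saline (0.9%). Both groups were then left for 30 days in the home cage, both received 1 cocaine challenge, and tissue was taken 1 h after it. By the labels the challenge was shared and the treatments differed only in history. For reference, 8 CS libraries (cocaine history) and 10 SS libraries (saline history) of the same line had a saline challenge, and 10 CC and 9 SC libraries came from mice with D2-Cre in place of D1-Cre. Nuclei were purified by fluorescence-activated nuclei sorting, so the sort rests on which cells drove Cre, and ages were not given in the labels. Labels do not say whether each library came from a separate mouse, so p-values measure the spread between these libraries.

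The nucleus accumbens receives dopamine from the midbrain and consists mostly of medium spiny neurons. One class carries the Gs-coupled D1 receptor, through which dopamine raises cyclic AMP and activates early genes such as Fos, and the other carries the Gi-coupled D2 receptor and makes enkephalin. Repeated cocaine is known for lasting changes in the excitatory synapses of these neurons and in how strongly early genes respond to a later dose. Nuclear RNA holds much unspliced transcript, and here counts covered whole gene spans, introns included.

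The libraries of the 2 groups differed in more than their history. Total counts were 12172926 to 24520138 in CC and 651445 to 25320198 in SC. A background share of the counts was read from olfactory and vomeronasal receptor genes, which are largely silent in brain, as the share that an even read density at their level would give. It was 45.5 ± 21.4% in CC (SD, n = 10) and 23.1 ± 17.9% in SC (n = 9), a difference of 22.4 points (two-sided exact permutation test, p = 0.0280; 0.0509 without SC 4 and 0.0507 without SC 9). The range was 4.04% to 64.8% in CC and 5.65% to 59.2% in SC, so the groups overlapped. Without the libraries that failed a quality rule, the difference was 18.05 points (7 against 5 libraries, exact permutation p = 0.136). Failing libraries were CC 3 (correlation with the line), CC 4 and 9 (receptor ratio) and SC 1, 4, 5 and 9 (correlation, with depth as well for SC 1, 5 and 9 and with gene number and receptor ratio for SC 5), 3 of 10 against 4 of 9. The label D1 was not borne out by both receptor measures in every library. Drd2 counts, not scaled to gene length, exceeded Drd1 counts in 4 CC and 6 SC libraries. Reads of genes beside the receptor genes, scaled to gene length, lay on the D2 side in CC 4, 9 and 10 and in 0 SC libraries. Their log2 ratios were -1.70, -1.89 and -0.995 in CC 4, 9 and 10. In SC the ratio ran from 0.112 to 2.54, on the D1 side, so the 6 SC libraries were set apart by the unscaled counts alone. CC 1 and CC 3 stood apart in another way, where genes over 100 kb took 38.6% and 34.1% of the counts, while SC 2, 4 and 9 had 64.1%, 63.2% and 61.7%.

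**Figure D1:**
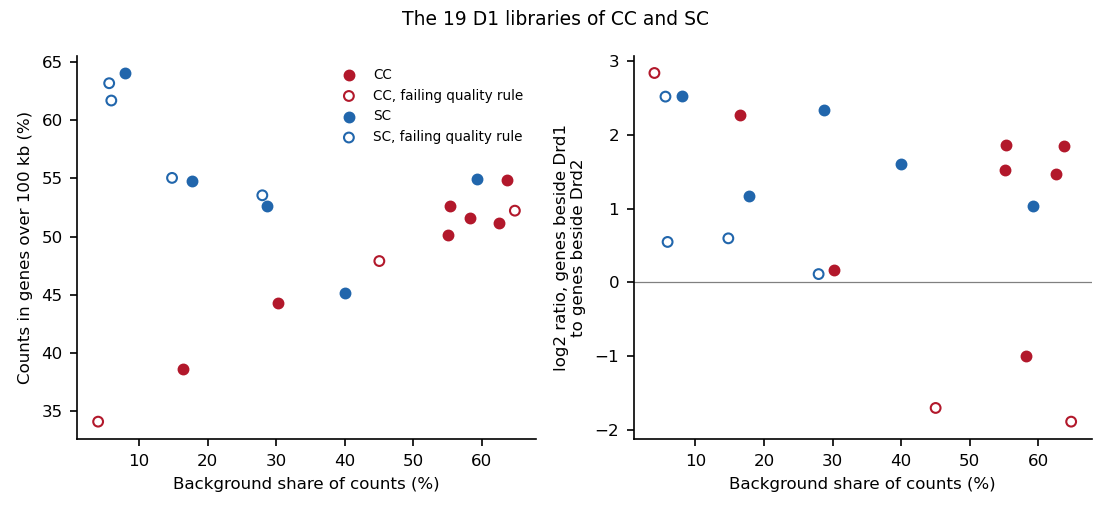
Each point is 1 library of D1 nuclei (CC red, 10 libraries; SC blue, 9 libraries; open circles failed the quality rule), with the background share of its counts in percent on the x axis. The y axes give the percentage of counts in genes over 100 kb (left) and the log2 ratio of reads of genes beside Drd1 to those beside Drd2 (right); CC 1 and CC 3 have the lowest long-gene shares, 38.6% and 34.1%, and CC 4, 9 and 10 lie below 0 on the right.

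In the fit of all libraries, many long genes of synapses, ion channels and cell adhesion were lower in CC than in SC. The groups also differed in the library properties above, and the part of history in these changes was not tested apart from them. Of 37721 genes tested, 2965 were lower and 990 higher in CC than in SC (edgeR quasi-likelihood test, adjusted p below 0.05), which is 7.86% and 2.62% of the genes tested, or 10.5% in both directions. The median log2 change over all genes tested was 0.19. The groups overlapped in nearly every gene: the CC range lay below the SC range in 4 genes (0.0106%) and above it in 7 (0.0186%). Without the failing libraries 0 genes passed (5578 had an unadjusted p below 0.05), and without the 4 failing SC libraries alone 0 passed as well (5331 had an unadjusted p below 0.05). Leaving out SC 2, SC 4, SC 9 or SC 5 gave 683, 831, 1390 and 2160 calls, against 8900 without CC 3, 8742 without SC 6 and 7769 without SC 7. Calls of 88 genes named here were followed through such settings, and 34 of them held whichever library was left out. Without SC 2, SC 4, SC 5 and SC 9, 45, 43, 35 and 34 were lost. Calls of Agt, Pde8b, Hsf1, Nos1, Oxr1, Sobp, Kcnj3, Gpr39 and of genes named only under other observations were not followed. After background subtraction 1033 genes were lower and 339 higher of 28229 tested (3.66% and 1.2%, or 4.86% in both directions). SC 2, 4 or 9 was the highest SC library for 57.1% of the genes that were lower in CC, and CC 3 was the highest CC library for 31.0% of those that were higher. When limma weighted each library by its fit, 19 of the 88 genes followed turned sign, and these were genes higher in CC except for Guca2b and Lgals1.

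The changes were ordered by gene length. Among protein-coding genes with a mean log2 CPM of 3 or more, the median log2 change was 0.69 for the 1320 genes of up to 10 kb, 0.05 for 6915 genes of 10 to 50 kb, -0.16 for 2499 of 50 to 100 kb, -0.32 for 1923 of 100 to 300 kb and -0.61 for 570 genes over 300 kb. The share that was lower in CC was 1.36%, 4.90%, 11.1%, 23.8% and 50.7% in the same order of classes. The share that was higher was 5.38%, 1.81%, 1.08%, 0.572% and 0.175%. Medians kept this order without the failing libraries, where they were 0.43, 0.05, -0.06, -0.14 and -0.31 and no gene passed. They also kept it once the even background density had been subtracted from the counts, at 0.81, 0.09, -0.19, -0.38 and -0.68, and with the background share as a covariate, at 0.98, 0.17, -0.060, -0.22 and -0.41. In libraries with a background of 15% or more, a setting chosen after seeing the data, the medians were 0.39, 0.088, 0.0068, -0.051 and -0.14. There the order was kept with smaller changes, and 2.46% of genes over 300 kb and 0.572% of those of 100 to 300 kb were lower. Genes over 100 kb took 34.1% to 54.9% of the counts of CC libraries (median 50.6%) and 45.1% to 64.1% of those of SC libraries (median 54.9%), and the part of this shift in each gene's change was not tested.

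**Figure D2:**
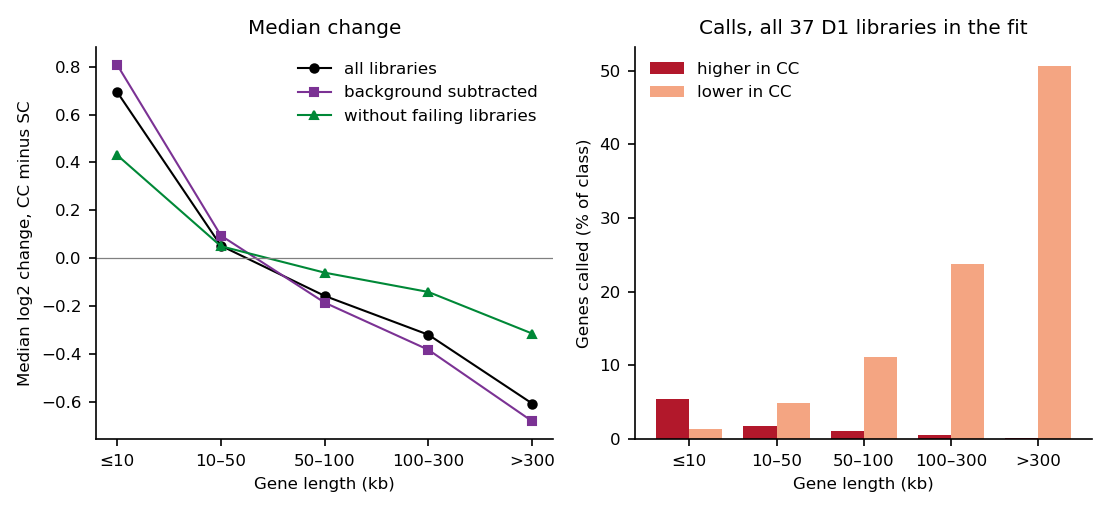
Protein-coding genes with a mean log2 CPM of 3 or more, in 5 classes of gene length (x axis, kb). The left panel gives the median log2 change, CC minus SC, over all libraries (0.69 to -0.61 from the shortest to the longest class), after background subtraction and without failing libraries, and the right panel the percentage of genes called higher or lower in CC.

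Genes of the postsynaptic scaffold and of synaptic adhesion had the highest share of calls among the protein-coding lists: 15 of the 30 tested were lower and 0 higher in CC. The list's median was -0.90 beside 0.19 for all genes. Values per gene are CPM, counts scaled to the library's total with TMM factors, given as the lowest, the median and the highest library of a group. Dlg2 (chromosome 7, 90476672 to 92449247, mm10), whose product PSD-93 anchors receptors in the postsynaptic density, had 1765, 2366 and 3699 CPM in CC and 2259, 6774 and 17943 in SC. All 10 CC libraries lay below the SC mean, yet the ranges overlapped, since the lowest SC libraries reached CC levels. The log2 change was -1.88 ± 0.34 (SE; edgeR adjusted p = 0.00205). Nrxn3 (chromosome 12, 88722876 to 90334935), a presynaptic adhesion protein, had 1754, 2406 and 3693 CPM in CC against 2218, 7344 and 17301 in SC, and Lsamp, an adhesion protein of limbic neurons, 1898, 2266 and 3465 against 1856, 6543 and 15137. Their log2 changes were -1.89 ± 0.35 and -1.81 ± 0.32 (edgeR adjusted p = 0.00205 and 0.00205), again with all 10 CC libraries under the SC mean. Shank1, a scaffold of dendritic spines, fell to 26.2, 43.7 and 71.3 CPM in CC, against 52.8, 129 and 202 in SC (-1.48 ± 0.27, edgeR adjusted p = 0.00205). Lrrtm4, Lrrc4c and Dlgap1, further adhesion and scaffold genes, changed by -1.57, -1.39 and -1.05. Of the list's 16 members over 100 kb 13 were lower (81.2%), and of the 14 shorter ones 2 (14.3%), where all genes tested gave 27.7% and 6.22%. Calls of the genes named in this group held with each library left out.

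Some receptor genes for glutamate and GABA fell. Of the glutamate receptor list, 10 of the 25 tested were lower and 0 higher in CC, with a median of -0.69; all 10 were over 100 kb, a class that holds 18 of the 25. Grm7, a presynaptic metabotropic receptor, had 815, 1034 and 1735 CPM in CC and 959, 3343 and 7356 in SC (-1.78 ± 0.33, edgeR adjusted p = 0.00205). Grm5, the Gq-coupled receptor of spines, had 655, 933 and 2622 against 884, 2459 and 6399 (-1.57 ± 0.37, adjusted p = 0.00563), with CC 1 and CC 3 the highest CC libraries and the ranges overlapping. The AMPA subunit Gria3 changed by -1.29. Of the GABA receptor list, 5 of the 14 tested were lower and 0 higher in CC. Among them the subunit genes Gabrg3 and Gabra2 changed by -1.23 and -1.54, and for Gabra2 the highest SC value, 2016 CPM, came from SC 5, a library of 651445 counts, while the next was 828. Of these receptor genes Grm7 kept its call with each library left out; Gabra2 lost it without SC 5, Gabrg3 without SC 2, Grm5 without SC 2 or SC 4, and Gria3 without any 1 of SC 2, 4, 5 and 9. With the background share as a covariate the median of the glutamate receptor list was -0.31 and that of the GABA receptor list 0.18, above the -0.044 of all genes. Of members over 100 kb, 55.6% of the glutamate and 62.5% of the GABA receptor list were lower, against 27.7% of all genes tested.

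Genes for transmitter release, excitability and axon guidance followed. Of the vesicle fusion list, 8 of the 28 tested were lower and 1 higher in CC; Rims1 and Rims2, scaffolds of the release site, had log2 changes of -1.07 ± 0.22 and -1.46 ± 0.31 (edgeR adjusted p = 0.00232 and 0.003). Of the potassium channel list, 17 of the 75 tested were lower and 0 higher in CC. Kcnd2, the A-type channel of dendrites, had 749, 1030 and 2326 CPM in CC and 993, 3381 and 8625 in SC (-1.86 ± 0.39, edgeR adjusted p = 0.00269), and Kcnq5 and Kcnb2, of the M-type and delayed rectifier currents, changed by -1.47 and -1.31. Of the sodium and calcium channel list, 9 of the 26 tested were lower and 0 higher in CC, with Cacnb2, a calcium channel beta subunit, at -1.59 ± 0.34 (adjusted p = 0.00328). Of the axon guidance list, 16 of the 71 tested were lower and 0 higher in CC; Robo1, a Slit receptor, and the netrin receptors Unc5c and Dcc changed by -1.59, -0.999 and -1.14. Of the cadherin list, 7 of the 35 tested were lower and 1 higher in CC, among them Pcdh9 at -1.21. Of members over 100 kb, 58.3% of vesicle fusion, 68.4% of potassium channel and 41.2% of sodium and calcium channel genes were lower. For axon guidance and cadherin genes of that length it was 30.3% and 36.8%, against 27.7% of all genes tested. Shorter members gave 6.25%, 7.14%, 22.2%, 15.8% and 0% in the same order, against 6.22%. Axon guidance genes over 100 kb were thus close to all genes of that length. Of the genes named in these groups only Kcnq5 and Dcc lost their calls when 1 library was left out, both without SC 2 or SC 4. The vesicle fusion list changed sides with the background share as a covariate, with a median of 0.16, beside -0.15 without the covariate.

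**Figure D3:**
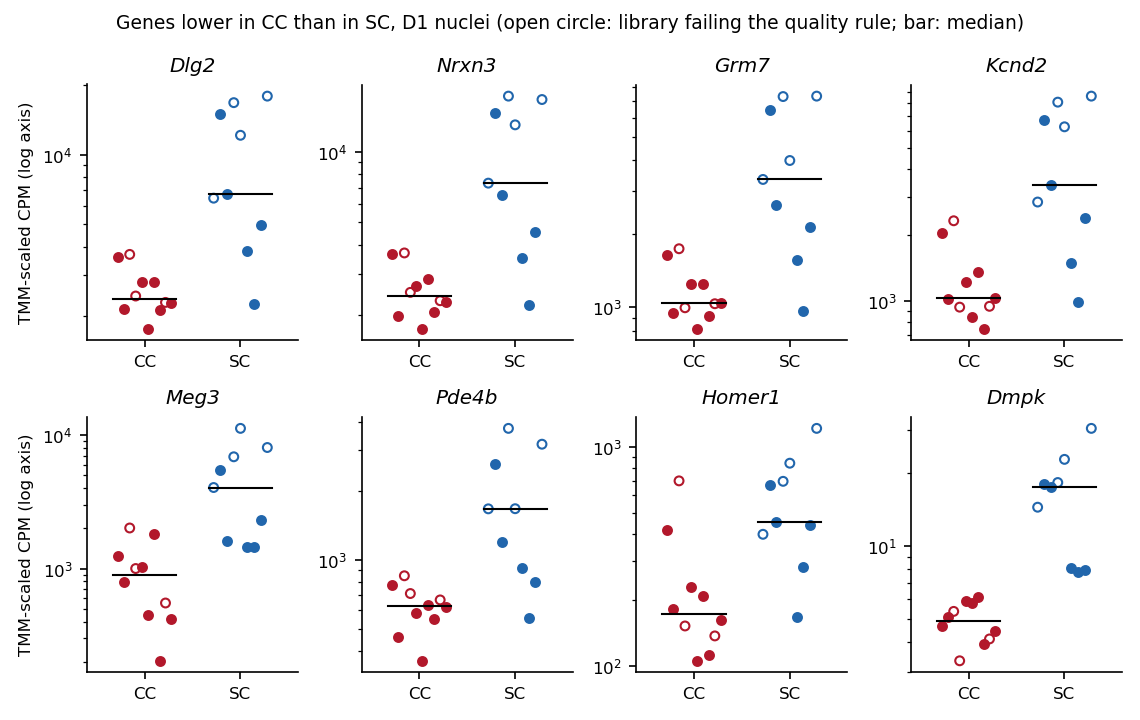
TMM-scaled CPM (log axis) of 8 genes lower in CC, 1 point per library (CC left, 10 libraries; SC right, 9 libraries; open circles failed the quality rule; bar, median). CC libraries lie close together in Dlg2, 1765 to 3699 CPM, while SC libraries spread from 2259 to 17943; Dmpk is the 1 gene shown whose groups do not overlap.

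Of the genes for dopamine and cyclic AMP signalling, 5 of the 33 tested were lower and 0 higher in CC, with a median of -0.30. Of the 14 members over 100 kb 4 were lower (28.6%) and of the 19 shorter ones 1 (5.26%), close to the 27.7% and 6.22% of all genes tested. Pde4b, Pde4d, Pde7b and Pde8b, 4 of the 5, encode phosphodiesterases, which break down cyclic nucleotides. Pde4b had 362, 628 and 850.5 CPM in CC and 556, 1668 and 3746 in SC (-1.55 ± 0.31, edgeR adjusted p = 0.00216), and Pde7b and Pde4d changed by -1.33 and -0.61. The remaining one, Drd3, the D3 dopamine receptor that is concentrated in the accumbens, had 41.8, 62.6 and 82.9 CPM in CC against 52.6, 118 and 287 in SC (-1.31 ± 0.27, adjusted p = 0.00243). All 10 CC libraries were below the SC mean for Pde4b and for Drd3, and the ranges overlapped. Ntrk2, the BDNF receptor, was lower by the same test (-1.20 ± 0.28, adjusted p = 0.00588), as 1 of the neurotrophin list in which 4 of the 12 tested were lower and 0 higher in CC. Pde4b and Drd3 kept their calls with each library left out, Ntrk2 and Pde7b lost theirs without SC 2 or SC 4, and Pde4d without any 1 of SC 2, 4, 5 and 9. With the background share as a covariate 12 of the 33 were higher and 3 lower, and the list's median was 0.22.

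Of the medium spiny neuron marker list, 4 of the 15 tested were lower and 1 higher in CC, the lower ones being Rarb (-1.26 ± 0.31), Meis2 (-1.21 ± 0.33), Foxp1 (-0.91 ± 0.25) and Foxp2 (-1.07 ± 0.31), with edgeR adjusted p = 0.00818, 0.0158, 0.0189 and 0.0213. The 4 lower members, transcription factors, are over 100 kb. After background subtraction 0 members were lower and 1 higher, and with the background share as a covariate 0 were lower and 6 higher. In pooled nuclei, fewer cells of a type and less RNA per cell cannot be told apart. Among clock genes 3 of the 20 tested were lower and 1 higher in CC: Rora, a nuclear receptor that activates the clock, and Npas2, a partner of BMAL1 in the forebrain, changed by -1.35 ± 0.28 and -1.48 ± 0.33 (edgeR adjusted p = 0.00269 and 0.00428), Per3 by -0.91, while the repressor gene Bhlhe40 was the higher one, at 1.28 (adjusted p = 0.0499). Of the glucocorticoid list, 5 of the 20 tested were lower and 0 higher in CC, including the mineralocorticoid receptor gene Nr3c2 (-1.15) and the kinase gene Sgk1 (-1.09). Of the genes for enzymes of DNA methylation and histone modification, 11 of the 50 tested were lower and 0 higher in CC, with the deacetylase gene Hdac8 at -1.13 and the methyl-CpG-binding gene Mbd5 at -0.99. With each library left out in turn, Rora, Nr3c2 and Hdac8 kept their calls. Npas2 lost its call without SC 4, Rarb, Sgk1 and Mbd5 without SC 2, 4 or 9, Meis2, Foxp1 and Foxp2 without SC 2, 4, 5 or 9, and Per3 and Bhlhe40 without any 1 of 7 and 10 libraries. With the background share as a covariate the medians were 0.41 for the medium spiny neuron list, 0.24 for clock genes and 0.21 for the glucocorticoid list, against -0.33, -0.20 and -0.012 without it. The share lower was 26.7% of the medium spiny neuron list, 15% of clock genes and 25% of the glucocorticoid list. It was 22% of the methylation and histone enzymes and 7.86% of all genes tested.

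Noncoding RNAs that stay in the nucleus had the lowest median of the 39 lists: 9 of the 15 tested were lower and 0 higher in CC, with a median of -1.07, and here 8 of the 9 were genes of up to 100 kb. Meg3 (chromosome 12, 109541001 to 109571726), an imprinted RNA of neuronal nuclei, had 203, 900.3 and 2016 CPM in CC and 1442, 4058 and 11278 in SC. Its log2 change was -2.31 ± 0.46 (edgeR adjusted p = 0.00209), with the 3 lowest SC libraries, 6, 7 and 3, inside the CC range. Snhg14, the host of the imprinted Ube3a antisense region, had 358, 562 and 1303 CPM in CC against 737, 2215 and 4705 in SC (-1.82 ± 0.33, adjusted p = 0.00205). Kcnq1ot1, which silences an imprinted cluster, and Miat changed by -1.37 and -1.07; Miat lost its call without SC 2, 4, 5 or 9, and the other 3 kept theirs. Reads from the opposite strand cannot be told apart here, as no strand setting is given in the sources used here. Without the failing libraries the list's median was -0.82 and 0 members passed.

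**Figure D4:**
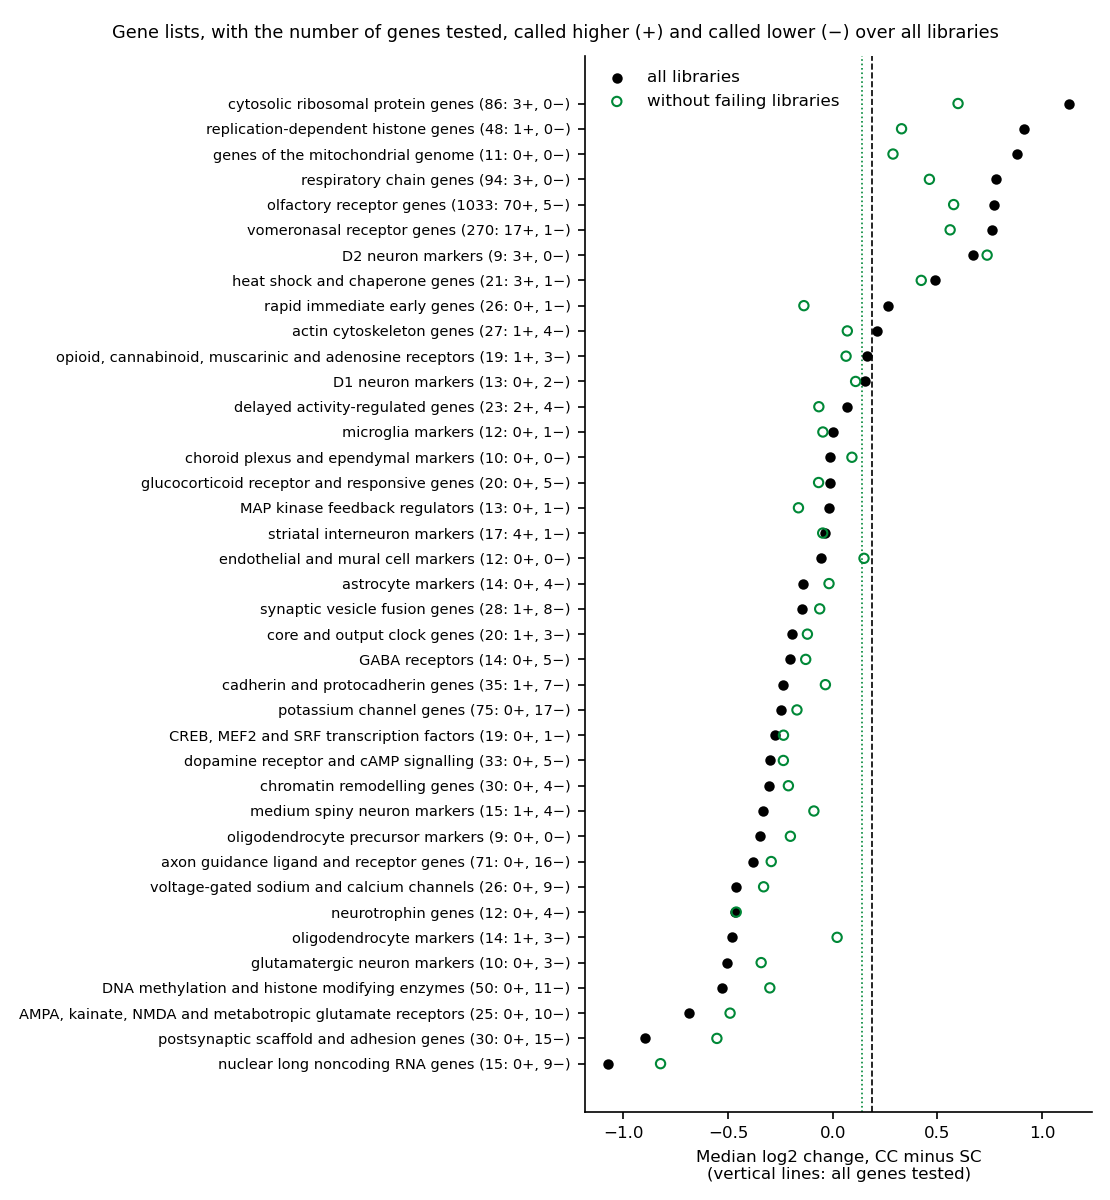
Median log2 change, CC minus SC (x axis), of 39 gene lists over all libraries (black) and without failing libraries (green, open), with the number of genes tested, called higher (+) and called lower (−) over all libraries. Dashed and dotted lines mark the medians of all genes tested, 0.19 and 0.14; nuclear noncoding RNAs lie lowest, at -1.07, and ribosomal protein genes highest, at 1.13.

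Among the genes higher in CC with a conventional symbol and a mean log2 CPM of 1 or more, the highest fold was that of Penk, the enkephalin precursor and a marker of D2 neurons. Penk (chromosome 4, 4133531 to 4138819) had 97.3, 718 and 1552 CPM in CC and 58.3, 110.0 and 356 in SC. Libraries CC 1, 3, 4, 7, 9 and 10 held 591 CPM or more and lay above every SC library, and CC 2, 5, 6 and 8 held 156 CPM or less and lay within the SC range. The log2 change was 2.30 ± 0.62 (edgeR adjusted p = 0.0145). Of the D2 marker list, 0 of the 9 tested were lower and 3 higher in CC, the others being the adenosine receptor Adora2a (1.22 ± 0.40, adjusted p = 0.0437) and the purine receptor P2ry1 (1.30 ± 0.39, adjusted p = 0.0299). Adora2a had 14.6, 77.3 and 132 CPM in CC and 5.06, 21.4 and 62.1 in SC. Libraries CC 4, 9 and 10, with reads on the D2 side, were among the 6 high in Penk. Without these libraries the changes were 2.06, 0.73 and 1.03, with edgeR adjusted p = 0.0582, 0.316 and 0.151. That setting kept CC 7, also among the 6 and the other CC library with Drd2 above Drd1. Before TMM scaling CC 7 had 379.5 CPM of Drd2 and 144.1 of Drd1. Its log2 ratio of reads beside the receptor genes was 0.173, on the D1 side but near 0. Leaving out CC 7 together with CC 4, 9 and 10 was not tested. Penk also lost its call without SC 2 (adjusted p = 0.0568), Adora2a without any 1 of 10 libraries and P2ry1 without CC 4, SC 2 or SC 4. Summed over the list, D2 markers stood at 511 to 2579 CPM in CC (median 1623) and 635 to 1283 in SC (median 723). The list's median change was 0.67, and -0.22 without CC 4, 9 and 10. The receptor genes themselves did not pass: Drd2 had 35.4, 98.2 and 649.5 CPM in CC and 36.4, 127 and 329 in SC (0.67 ± 0.49, adjusted p = 0.33), and Drd1 24.3, 106 and 866 against 21.4, 98.9 and 244 (1.10 ± 0.53, adjusted p = 0.144). The D1-neuron peptides Tac1 and Pdyn had log2 changes of 1.27 ± 0.56 and 1.11 ± 0.54 (adjusted p = 0.113 and 0.148).

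The cytosolic chaperone genes Hsp90aa1 and Hsp90ab1 and the mitochondrial chaperone gene Hspd1 were higher; of their list, 1 of the 21 tested was lower and 3 higher in CC, the lower one being Hsf1. Hsp90aa1 had 87.7, 203 and 1710 CPM in CC and 58.2, 78.1 and 369 in SC (1.81 ± 0.54, edgeR adjusted p = 0.0279), with 8 of 10 CC libraries above the SC mean and overlapping ranges. Hsp90ab1 and Hspd1 changed by 1.67 and 1.47. Actg1, a cytoplasmic actin, had 21.7, 58.3 and 529 CPM in CC against 3.397, 27.8 and 97.7 in SC (1.91 ± 0.60, adjusted p = 0.0358). For ribosomal proteins, 0 of the 86 tested were lower and 3 higher in CC, while all 86 estimates were above 0 and the median was 1.13 (0.60 without the failing libraries). The 3 were Rpl11 (1.14 ± 0.34), Rpl3 (1.43 ± 0.48) and Rps26 (1.65 ± 0.56), with adjusted p = 0.0299, 0.0492 and 0.0492; such genes have near-identical processed copies, so their counts are uncertain. Of the respiratory chain genes, 0 of the 94 tested were lower and 3 higher in CC (Sdhd 1.22, Ndufs5 1.33, Ndufb10 1.65). The shares higher, 3.49% of the ribosomal and 3.19% of the respiratory chain list, were close to the 2.62% of all genes tested. Nap1l5, Bex1 and Rraga, short neuronal or signalling genes among the 10 largest rises, changed by 2.02, 1.94 and 1.93. CC 1 or CC 3 was the highest CC library for each of these higher genes, and with limma's library weights Actg1, the 3 chaperone, the 3 ribosomal and the 3 respiratory chain genes, Bex1 and Rraga all had estimates below 0, from -0.45 to -0.039. Nap1l5 kept its call with each library left out, and each other higher gene named here lost it without CC 1 and without SC 2, among others.

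**Figure D5:**
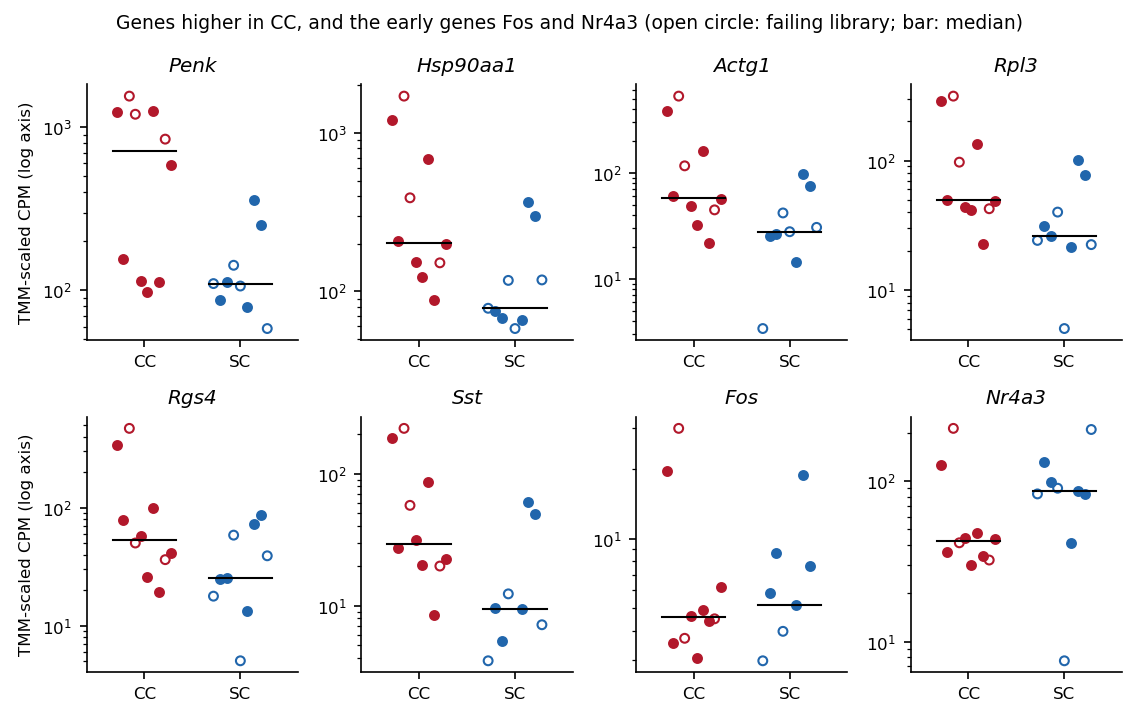
TMM-scaled CPM (log axis, a library at 0 is not drawn) of 6 genes higher in CC and of the early genes Fos and Nr4a3, 1 point per library (CC left, SC right; open circles failed the quality rule; bar, median). CC 1 and CC 3 lead Hsp90aa1, Actg1, Rpl3, Rgs4 and Sst, and in Fos and Nr4a3 the same pair lies above the other 8 CC libraries.

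Early genes, which are switched on within an hour of a cocaine dose, gave 1 call over all libraries. Of the rapid early gene list, 1 of the 26 tested was lower and 0 higher in CC, and with the background share as a covariate 6 were higher and 2 lower. The list's median was 0.26, or -0.14 without the failing libraries. The 1 call was Ier2, at 0.140, 0.479 and 0.638 CPM in CC and 0, 0.682 and 2.50 in SC. Fos, a subunit of AP-1, had 3.06, 4.58 and 30.0 CPM in CC and 0, 5.19 and 18.8 in SC; 8 of the 10 CC libraries held at most 6.20 CPM, and CC 1 and CC 3 held 19.6 and 30.0. Its log2 change was 0.34 ± 0.44 (edgeR adjusted p = 0.609). Fosb, Arc, Egr1 and Npas4 had log2 changes of 0.71 ± 0.41, 0.41 ± 0.47, 0.95 ± 0.51 and 0.10 ± 0.34 (adjusted p = 0.221, 0.556, 0.186 and 0.858). Without the failing libraries the estimates of Fos, Fosb, Arc and Npas4 were -0.44, -0.023, -0.41 and -0.40, on the other side of 0. With limma's library weights these 4 were lower in CC, at -0.83, -0.83, -0.96 and -1.01 (limma adjusted p = 0.0265, 0.0129, 0.0429 and 0.003). Nr4a3, an orphan nuclear receptor gene, had 30.0, 42.4 and 213 CPM in CC and 7.59, 86.8 and 209.8 in SC. In 8 of 10 CC libraries it was below the SC mean, but CC 1 and CC 3 were not, and the change of -0.53 ± 0.35 did not pass (adjusted p = 0.288); with CC 3 left out it was -0.96 (adjusted p = 0.0279). Nr4a1, Fosl2 and Per1 had changes of -0.23 ± 0.37, -0.36 ± 0.30 and -0.24 ± 0.38, none of which passed. Fosl2 passed as well with CC 3 left out (-0.76, adjusted p = 0.0287), and Ier2 lost its call without SC 2, 3, 4 or 9.

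Of the slower activity-regulated genes, 4 of the 23 tested were lower and 2 higher in CC. Homer1, a postsynaptic scaffold with an activity-induced short form, had 106, 173 and 698 CPM in CC and 168, 452 and 1210 in SC (-1.25 ± 0.38, edgeR adjusted p = 0.0288), with the short and long forms not separated by gene counts. Sorcs3, a sorting receptor, and Mbnl2, a splicing factor, changed by -0.89 ± 0.20 and -1.43 ± 0.34 (adjusted p = 0.00429 and 0.00696). The higher ones were Rgs2 and Rgs4, which shorten G protein signals. Rgs4 had 19.2, 53.7 and 469.7 CPM in CC and 5.06, 25.2 and 86.1 in SC (1.64 ± 0.53, adjusted p = 0.0398), and Rgs2 changed by 1.65 ± 0.51 (adjusted p = 0.0333). All lower members of this list were over 100 kb, and both RGS genes span under 10 kb. Sorcs3 lost its call without SC 2 or SC 4, Mbnl2 without SC 2, 4 or 5, Homer1 without any 1 of 6 libraries, and Rgs2 and Rgs4 without any 1 of 8, CC 1 and CC 3 among them.

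Some markers of other cells moved with the groups too. Of the glutamatergic neuron list, 3 of the 10 tested were lower and 0 higher in CC, namely Slc17a7 (-2.08 ± 0.52), Neurod2 (-2.10 ± 0.41) and Tbr1 (-1.08 ± 0.30), with edgeR adjusted p = 0.00962, 0.00209 and 0.0175. Slc17a7, the cortical vesicular glutamate transporter, had 1.44, 6.05 and 11.9 CPM in CC and 0, 14.9 and 119.6 in SC, the highest being SC 7. Of the astrocyte list, 4 of the 14 tested were lower and 0 higher in CC, among them Slc1a2 and Slc4a4 (-1.02 and -1.08); the list summed to 494 to 1482 CPM in CC (median 655) and 894 to 2421 in SC (median 1235). The remaining calls were Hepacam and Agt. Hepacam was at 1103 CPM in SC 5 and 53.9 in the next SC library, and lost its call without SC 5. After background subtraction the median of Agt was 2.23 CPM in CC and 2.42 in SC. Of the list's 3 members over 100 kb 2 were lower (66.7%), and of the 11 shorter ones 2 (18.2%), where all genes tested gave 27.7% and 6.22%. Of the oligodendrocyte list, 3 of the 14 tested were lower and 1 higher in CC, the lower ones being Mobp, Mbp and Myrf (-1.54, -0.69 and -0.92), with sums of 234 to 996 CPM in CC (median 261) and 268 to 1612 in SC (median 410). Of the microglial list, 1 of the 12 tested was lower and 0 higher in CC, the 1 call being P2ry12 (-0.78), a share of 8.33% beside 7.86% of all genes tested. The glutamatergic, astrocyte and oligodendrocyte lists had shares of 30%, 28.6% and 21.4% lower. Of the interneuron list, 1 of the 17 tested was lower and 4 higher in CC. These were 5.88% and 23.5%, beside 7.86% and 2.62% of all genes tested. The lower one was Nos1, with a median of 47.7 CPM in CC and 57.9 in SC after background subtraction. The peptide genes Sst and Npy were higher (1.86 ± 0.60 and 1.54 ± 0.43, edgeR adjusted p = 0.0406 and 0.0173). Sst was at 8.57, 29.2 and 220.5 CPM in CC and 0, 9.45 and 61.2 in SC. Slc17a7 lost its call without SC 7, Tbr1 without SC 4 or SC 5, Mobp without SC 5 or SC 9, Myrf without SC 2, 5 or 9, Npy without SC 2 or SC 4, Slc4a4 without SC 2, 4, 5 or 9, Slc1a2 and Mbp without SC 1, 2, 4, 5 or 9, and P2ry12 and Sst without any 1 of 12 and 10 libraries. The part of these other cells in the changes of neuronal genes was not tested.

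A few of the largest falls came from 1 library. Guca2b, a gut peptide gene, had the largest fall of the genes named by rule, -5.74 ± 1.01 (edgeR adjusted p = 0.00205), but had 640 CPM in SC 5 and at most 2.82 in each of the other SC libraries, against 0.103, 1.36 and 1.64 in CC. Hepacam, an astrocyte adhesion gene, reached 1103 CPM in SC 5 and 53.9 in the next SC library, and Stx1a, a syntaxin of the release machinery, 888 and 63.7. Dnm3os reached 261 and 13.4, and Hdac7, a class II deacetylase gene, 324 and 127. Without the failing libraries, SC 5 among them, the estimates were 0.18 for Guca2b, -0.034 for Hepacam, -0.46 for Stx1a, -1.13 for Dnm3os and -0.51 for Hdac7. Leaving out SC 5 alone ended the calls of Guca2b, Hepacam and Stx1a but not those of Dnm3os and Hdac7. Lgals1, at 80.3 CPM in SC 1 and 5.07 in the next SC library (-2.96 ± 0.60), lost its call without SC 1. SC 5 exceeded the next SC library by more than 3 times in 287 of the 2965 lower genes, 9.68% of them.

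The smallest p belonged to Dmpk. Dmpk (chromosome 7, 19083849 to 19093821), a kinase gene with a repeat that is expanded in human myotonic dystrophy, had 3.35, 4.87 and 6.13 CPM in CC and 7.82, 17.5 and 30.6 in SC. Every CC library lay below every SC library, and the log2 change was -1.68 ± 0.26 (edgeR adjusted p = 0.00163). With 1 library left out at a time it ranged from -1.78 to -1.31 and passed each time; without the failing libraries it was -1.11 and did not pass (adjusted p = 0.151). Oxr1, an oxidation resistance gene, Sobp and Kcnj3, a G protein-gated potassium channel subunit, were the other 3 genes without overlap in this direction, chosen after their values were seen. Oxr1 spanned 190 to 243 CPM in CC and 245 to 754 in SC, with a log2 change of -0.91 ± 0.17 (adjusted p = 0.00209). Kcnj3 spanned 72.4 to 88.8 CPM in CC and 89.3 to 219.8 in SC (-0.79 ± 0.19, adjusted p = 0.00787), and Sobp 69.7 to 99.4 in CC and 99.8 to 263 in SC (-0.88 ± 0.17, adjusted p = 0.00209). The most abundant of the 7 genes without overlap in the other direction was Gpr39, a zinc-sensing receptor gene, at 112 to 152 CPM in CC and 20.2 to 104.6 in SC (0.66 ± 0.18, adjusted p = 0.0143). Of the membrane-trafficking gene Clvs1 and the deubiquitinase gene Otud7a, also among the smallest p-values, the changes were -1.66 ± 0.29 and -1.42 ± 0.25. On the higher side, the smallest p-values belonged to genes of low level, such as the GABA receptor subunit Gabrq (3.36, 6.58 and 18.9 CPM in CC and 0, 3.46 and 7.93 in SC; 1.37 ± 0.33, adjusted p = 0.00696), the calcitonin receptor Calcr (1.09 ± 0.27) and the glyoxalase Glo1 (0.93 ± 0.24). After background subtraction the median level of Glo1 was 0 CPM in CC and 0.42 in SC, and that of Gabrq 0.76 in CC and 0 in SC.

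The history effect after cocaine, CC minus SC, was set against the history effect after saline, CS minus SS, in the same fit. Here history effect names a contrast of groups, which includes any difference between their libraries. In CS minus SS 0 of 37721 genes passed (1204 had an unadjusted p below 0.05). In the difference of the history effects, (CC minus SC) minus (CS minus SS), 0% passed as well (6936 had an unadjusted p below 0.05), the smallest adjusted p being 0.0527, while DESeq2 called 2939 genes and RLE scaling gave 1193. Leaving out 1 library gave 2517 calls without SC 7, 1431 without SC 8, 1002 without CC 8, 800 without SC 6, 773 without CC 6, 687 without CC 5, 664 without CC 9 and 0 without each of the other CC and SC libraries; CS and SS libraries were not left out. For Dlg2 the history effect was -1.88 after cocaine and 0.12 after saline, a difference of -2.01 ± 0.48 (edgeR adjusted p = 0.0527). For Penk it was 2.30 after cocaine and -0.33 after saline (2.63 ± 0.86, adjusted p = 0.0819), and for Actg1 1.91 and -1.73 (3.64 ± 0.87, adjusted p = 0.0527). Which side of the threshold such differences fell on changed with the scaling and the tool. CC and SC libraries enter both the difference and the history effect after cocaine.

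In D2 nuclei, where total counts reached down to 19825 in CC and 2040625 in SC, the same comparison, CC minus SC, gave 1 gene higher (0.00255%) and 31 lower (0.079%) of 39250, or 0.0815% in both directions. The test of the difference between D1 and D2 nuclei passed for 36 genes (0.0917%), with the D1 change below the D2 change in 34 (0.0866%) and above it in 2 (0.0051%). In 31 of the 36, SC 5 or SC 1 of the D1 line was the highest D1 SC library by more than 3 times, and without failing libraries 0 passed (1183 had an unadjusted p below 0.05). Changes in D1 and D2 nuclei were -1.88 and -0.55 for Dlg2, -2.31 and -1.18 for Meg3, 2.30 and 0.73 for Penk and -1.55 and -0.40 for Pde4b. The tests of these 4 differences gave adjusted p = 0.441, 0.592, 0.539 and 0.486 (edgeR), so no difference between the lines was shown for them.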

How the data were processed

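The whole-number counts per gene deposited by the authors (55401 identifiers, 75 libraries, all matched to labelled samples) were used for every test. The FPKM values deposited by the authors served only to read gene lengths, which equalled the full gene span of GENCODE M21 (mm10) for 54271 of 54271 identifiers compared (tolerance 0.1%). Per the submitters' processing notes, featureCounts, DESeq2 and mm10 were used. Aligner, versions and strand setting are not given in the sources used here. Stranded libraries came from total nuclear RNA with a low-input kit, per the labels' protocols.

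The 37 D1 libraries were fitted together by edgeR's quasi-likelihood test (edgeR 4.0.16, R 4.3.3) after TMM scaling and a low-count filter (filterByExpr, groups given), and p-values were adjusted by Benjamini-Hochberg over all genes tested, with a threshold of 0.05. The comparison of D1 with D2 nuclei used all 75 libraries. SEs derive from the change and its test statistic. Alternatives used DESeq2 1.42.0, limma 3.58.1 (voom with library weights), RLE scaling, other filters and library sets, and the background share as a covariate or subtracted. Settings that combine these, or that leave out only failing SC libraries or those under 15% background, were chosen after seeing the data. A library failed the quality rule on total count, number of genes with 10 or more counts, the Drd1 to Drd2 ratio, or correlation with its line; the rule and the background share were defined with earlier results known. On simulated counts (36179 genes) the test recovered 88% of genes lowered by 2 on the log2 scale, 24% of those lowered by 1, 32% of those raised by 1 and 90% of those raised by 2, and called 4 of 35979 unchanged genes. Each simulated gene was drawn independently, around a mean shared by all libraries apart from the set changes. The simulation held no group difference in background or long-gene share, so these rates do not measure false calls in the real comparison. Members and the 39 gene lists were chosen with earlier results of these data known. Genes named are, by rule, the 15 smallest p-values and 10 largest changes of each direction among called genes that have a conventional symbol and reach a mean log2 CPM of 1, up to 6 genes per list by p, and fixed early genes and receptor and peptide markers. The text names part of these 280; some genes are not reported here. Library totals were 651445 to 25320198 counts, and a lower total gives a less precise value. Replicate numbers were not used to pair libraries of the 2 groups, except in 1 setting with a replicate block.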

Additional observations from a re-analysis of the deposited data

Results flagged for a closer look

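Of 210 sets of values tested, 15 held a library far from the others of its group, where chance gives about 1 in 20. In CC, library 3 stood apart in Homer1 at 698 CPM (next 417), in Nr4a3 at 213 (next 125) and in Slc1a2 at 384 (next 239.8). In SC, library 5, with 651445 counts, stood apart in Gabra2 at 2016 CPM, Hdac7 at 324, Nr4a1 at 167, Hepacam at 1103, Mobp at 316, Guca2b at 640.0, Dnm3os at 261 and Stx1a at 888. The next SC libraries were at 828, 127, 89.5, 53.9, 94.7, 2.82, 13.4 and 63.7 CPM for the same genes in that order. Library 7 of SC stood apart in Nap1l5 at 33.8 CPM (next 14.996), Fos at 18.8 (next 8.66) and Slc17a7 at 119.6 (next 40.8), and library 1 of SC in Lgals1 at 80.3 (next 5.07).

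The CC minus SC change differed between D1 and D2 nuclei by edgeR's test in 4 of the genes named in the text. The differences on the log2 scale were -1.88 for Hdac7, -5.23 for Guca2b, -3.29 for Dnm3os and -3.38 for Lgals1. In each of these 4 genes SC 5 or SC 1 of the D1 line was the library that stood apart.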

How the results depend on the processing

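The CC minus SC comparison gave 3955 calls, 4054 with RLE scaling (1449 higher, 2605 lower, against 990 and 2965) and 3838 without the low-count filter. RLE moved the median of all genes to 0.31. The count was 2384 with a CPM of 1 in at least 9 libraries, 224 in a fit of CC and SC alone (1 higher, 223 lower), 7575 with DESeq2 (4283 higher, 3292 lower), 17029 with limma's library weights (10047 higher, 6982 lower), 2279 without CC 4, 9 and 10 (166 higher), 7024 with the background share as covariate (4673 higher, 2351 lower), 1372 after background subtraction, 2398 among protein-coding genes and 0 without failing libraries. Settings chosen after seeing the data gave 0 without failing libraries and CC 10 (4090 genes had an unadjusted p below 0.05), 512 in libraries with 15% background or more, 0 after subtraction without failing libraries (2878), 1 after subtraction without CC 4, 9 and 10, and 0 without the failing SC libraries. Leaving out 1 library gave 683 to 8900. The difference from CS minus SS gave 0 calls, but 1193 with RLE, 2939 with DESeq2, 17 with limma, 2688 with the covariate, 1124 among protein-coding genes and 0 to 2517 with 1 library left out (2517 without SC 7). The difference between D1 and D2 nuclei gave 36, against 11 with RLE, 14 with the CPM filter, 9 with DESeq2, 93 with the covariate and 0 without failing libraries, also after subtraction (869 unadjusted). The background share differed by 20.2 to 27.0 points with 1 library left out, with exact permutation p = 0.0509 without SC 4 and 0.0507 without SC 9, and by 18.05 points without failing libraries.

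Deviations of same-numbered CC and SC libraries correlated at -0.40 to 0.54. Libraries of different number were not compared, so whether the numbers pair them was not tested. A replicate block gave 1469 calls for CC minus SC, 0 for the difference between D1 and D2 nuclei (2605 unadjusted) and Npas4 at -0.051. Of the 88 named genes with a call that were followed, 84 kept it with RLE, 84 with DESeq2 and 0 without failing libraries, where 87 kept their direction. In the fit of CC and SC alone 26 of 87 kept it, and 15 of 88 in libraries with 15% background or more. With limma's weights 59 of 88 kept it, and after subtraction without CC 4, 9 and 10 it was 1 of 87.

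These log2 changes turned sign; the cause was not tested. Without failing libraries they were Arc -0.41, Fos -0.44, Fosb -0.023, Guca2b 0.18 and Npas4 -0.40, and without CC 10 as well Arc -0.39, Fos -0.41, Guca2b 0.15, Npas4 -0.37 and Per1 0.042. With 15% background or more they were Arc -0.46, Fos -0.54, Fosb -0.077, Guca2b 0.17 and Npas4 -0.38. After subtraction without failing libraries they were Arc -0.32, Fos -0.54, Fosb -0.18, Guca2b 0.46 and Npas4 -0.30. Without the failing SC libraries they were Arc -0.11, Fos -0.14, Guca2b 0.12, Npas4 -0.17, Nr4a1 0.044 and Per1 0.26. Without CC 4, 9 and 10 Drd2 was -0.55, and after subtraction Drd2 -0.24 and Per1 0.0050. With DESeq2 Guca2b was 0.0060, and with the covariate Nr4a1 was 0.22 and Per1 0.25. With 1 library left out Arc ranged from -0.030 to 0.92, Fos from -0.16 to 0.76, Npas4 from -0.26 to 0.24, Nr4a1 from -0.67 to 0.17 and Per1 from -0.73 to 0.045. With limma's weights they were Actg1 -0.11, Arc -0.96, Bex1 -0.25, Bhlhe40 -0.53, Drd1 -0.91, Egr1 -0.65, Fos -0.83, Fosb -0.83, Guca2b 0.79, Hsp90aa1 -0.26, Hsp90ab1 -0.25, Hspd1 -0.039, Lgals1 0.17, Ndufb10 -0.45, Ndufs5 -0.31, Npas4 -1.01, Npy -0.16, Pdyn -0.998, Rgs2 -0.38, Rgs4 -0.38, Rpl11 -0.10, Rpl3 -0.38, Rps26 -0.37, Rraga -0.16, Sdhd -0.13, Sst -0.41 and Tac1 -0.65.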

Other observations

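Of serotonin, opioid, cannabinoid, muscarinic and adenosine receptor genes, 3 of the 19 tested were lower and 1 higher in CC, the lower ones being the serotonin receptor genes Htr4, Htr2c and Htr2a. Of chromatin remodelling genes, 4 of the 30 tested were lower and 0 higher in CC (Arid1b, Chd7, Chd1 and Ino80). Of actin cytoskeleton genes, 4 of the 27 tested were lower and 1 higher in CC, with Ssh2, Wasf3, Kalrn and Ssh1 lower and Actg1 higher. Of MAP kinase feedback regulators, 1 of the 13 tested was lower and 0 higher in CC, and of CREB, MEF2 and SRF factors, 1 of the 19 tested was lower and 0 higher in CC, the single calls being Spred2 and Elk3. These genes were named after their values were seen. The shares lower were 15.8%, 13.3%, 14.8%, 7.69% and 5.26% of these lists in order, beside 7.86% of all genes tested. The last 2 were close to or below that share. Chromatin remodelling genes were 27.3% lower over 100 kb and 5.26% among shorter ones, close to the 27.7% and 6.22% of all genes tested.

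Replication-dependent histone genes had a median log2 change of 0.91 and genes of the mitochondrial genome 0.88, with 1 of 48 histone genes higher in CC and 0 of 11 mitochondrial ones changed. Without the failing libraries these medians were 0.33 and 0.29. Olfactory receptor genes, largely silent in brain and used for the background share, had a median of 0.77 (5 of the 1033 tested were lower and 70 higher in CC) and vomeronasal ones 0.76 (1 of the 270 tested was lower and 17 higher in CC). With the background share as covariate these medians were 0.018 and 0.039. That covariate was read from these same genes, so their medians cannot test it. Of D1 neuron markers, 2 of the 13 tested were lower and 0 higher in CC. Of markers of oligodendrocyte precursors, endothelial and mural cells, and choroid plexus, 0 of 9, 0 of 12 and 0 of 10 tested passed in either direction.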
